A study of Mus musculus with 4 samples.

Results

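Cell cycle and DNA replication genes were examined in dermal white adipose tissue (dWAT), the fat layer that lies beneath the dermis around the lower ends of the hair follicles (HFs). The 37 genes were taken from a list by their function, 23 of them acting in mitosis and 14 in DNA replication or entry into S phase. All 37 were found among the 22913 genes in the files, and none was left out by a filter on low values. The study sequenced RNA of dWAT that had been separated by microdissection from C57BL/6 mice, old (18 months) or young (2 months), with 1 library for each of 4 groups. YTD is young dWAT in telogen, the resting phase of the hair cycle, and OTD is old dWAT in telogen. YAD and OAD are young and old dWAT in anagen, the growth phase, which was induced by plucking the hair. The tissue of several mice went into each group, and no genotype or treatment other than depilation was given. The age tags of the samples give 18 months for both telogen libraries and 2 months for both anagen libraries. The ages used here follow the sample titles and the protocol.

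Replicates do not exist in this design, each comparison sets one library against another, and differences are given with no p-value. Levels are FPKM, the number of fragments per kilobase of gene and per unit of sequencing depth. A difference is that of log2(FPKM + 1) between 2 libraries, a scale that shrinks changes at low levels, and a gene was called when its difference was at least 1 in size. A fold is the ratio of the 2 FPKM, given with a 95% counting interval from the fragments estimated behind each value. The files list no fragment counts, and the lowest FPKM values gave rough depths of 19400000 to 25000000 fragments per library, so these intervals are rough too. They cover counting error only, and say nothing of the spread between animals or tissue samples.

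A cell that divides first copies its DNA and then separates the copies. Before S phase, CDC6 and CDT1 load the MCM2-7 helicase on DNA, cyclin E with its kinase starts replication, and the clamp PCNA holds the polymerases while RRM2 and TYMS supply nucleotides. Mitosis is driven by CDK1 with the B cyclins, by the Polo and Aurora kinases, and by kinesins that build the spindle, and it ends when the anaphase-promoting complex marks its substrates for degradation. Genes for replication are mostly transcribed around the start of S phase under the E2F factors, and genes for mitosis later, in G2 and M, through promoter elements bound by the MuvB complexes. In skin in anagen, the matrix of the hair bulb, which grows down into dWAT, is one of the fastest dividing tissues of the adult body, and dWAT itself expands.

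The 37 genes were low in both telogen libraries and higher in both anagen libraries. For each of them the lower of the 2 anagen values exceeded the higher of the 2 telogen values, while this held for 39.4% of the 18152 genes with a value above 0 in any library. The gap between the phases was smallest for Ccne2, at 1.18-fold, and largest for Cenpf, at 26.3-fold. Of the 37 genes, 36 were called higher in YAD than YTD, beside 16.1% of all genes, and 36 were called higher in OAD than OTD, beside 16.1% again. None was called lower, beside 16.7% of all genes in the young and 15.6% in the old. Among genes that reached 1 FPKM in either library, as all 37 did, 20.6% were called higher in the young and 20.6% in the old. In bulk tissue, fewer cells of a type and less RNA per cell cannot be told apart, so these values do not say whether more cells were dividing or each held more of these transcripts.

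**Figure D1:**
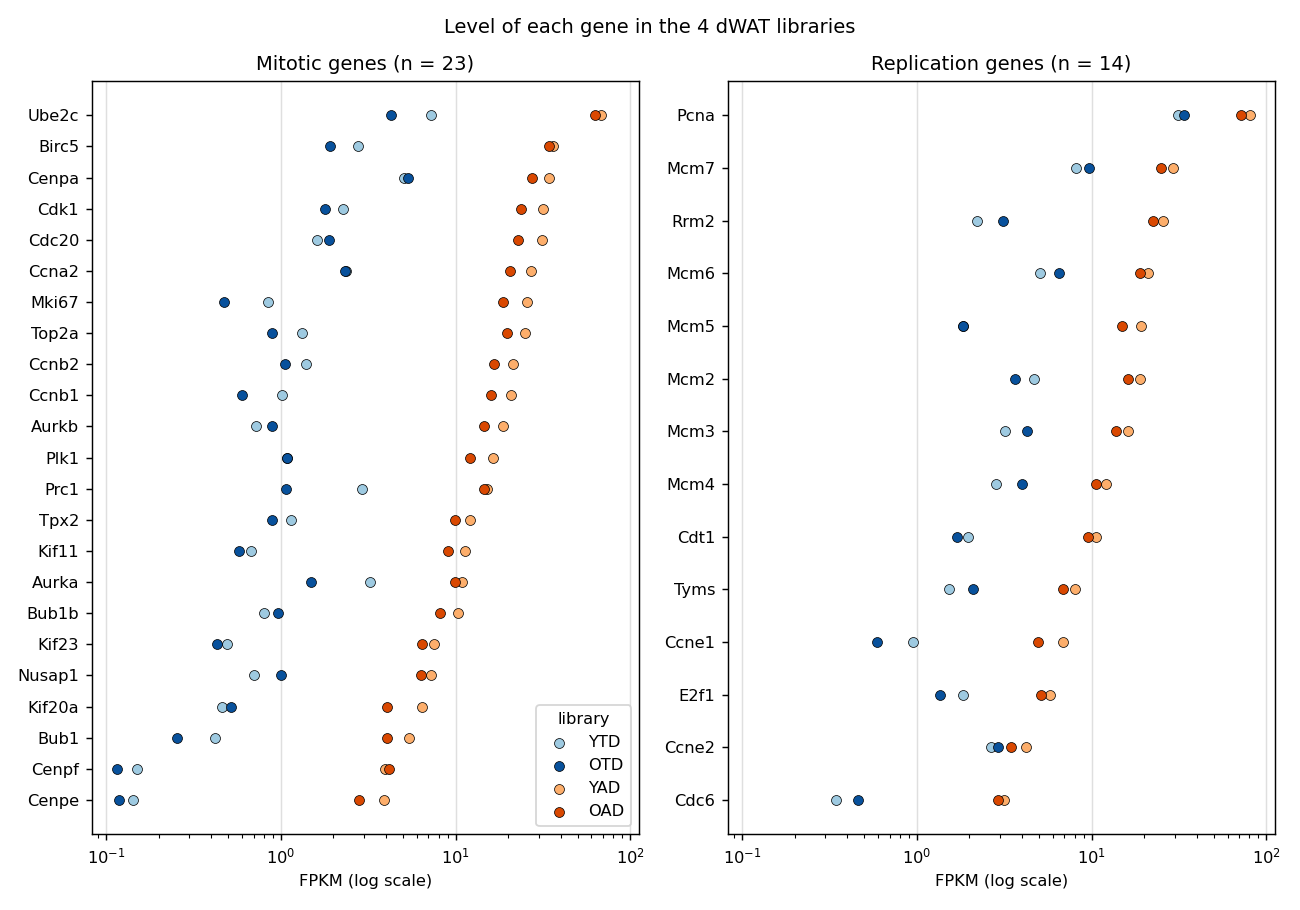
Each row is a gene and each point its level in 1 library, in FPKM on a log axis, for the mitotic genes (left) and the replication genes (right). Telogen libraries are in blue (YTD pale, OTD dark) and anagen libraries in orange (YAD pale, OAD dark), and in every row both orange points lie to the right of both blue points.

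Mitotic and replication genes differed in where they started. The mitotic genes had a median of 1.09 FPKM in YTD and 0.965 FPKM in OTD, against 16.4 FPKM in YAD and 14.6 FPKM in OAD. The median of the replication genes was 2.43 FPKM in YTD and 3.01 FPKM in OTD, against 14.1 FPKM in YAD and 12.2 FPKM in OAD. The ratio of the mitotic to the replication median, which no scaling of a library can change, was thus 0.449 in YTD, 0.320 in OTD, 1.16 in YAD and 1.19 in OAD. In telogen the replication genes were the more abundant group, and in anagen the mitotic genes were. With sums in place of medians the ratio was 0.567 in YTD, 0.396 in OTD, 1.72 in YAD and 1.63 in OAD. Pcna alone held 45.6% of the replication sum in YTD and 30.9% in YAD.

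The mitotic genes had a median difference of 2.87 between YAD and YTD, beside 0.02 over all genes, and the replication genes one of 1.82. In the old the medians were 2.67 for the mitotic and 1.42 for the replication genes, beside 0.01 over all genes. As FPKM ratios, the median was 14.0-fold for the mitotic and 4.66-fold for the replication genes in the young, and 14.5-fold and 3.54-fold in the old. The ranges of the 2 groups overlapped. In the young, 16 of the 23 mitotic genes had a higher fold than any replication gene, the highest of which was Rrm2 at 11.5-fold, and in the old 19 of 23 lay above the highest, Ccne1 at 8.39-fold. No replication gene reached the mitotic median at either age. The lowest mitotic fold was that of Aurka in the young, 3.38, and that of Cenpa in the old, 5.07. Only 3 replication genes in the young and 9 in the old lay below these.

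**Figure D2:**
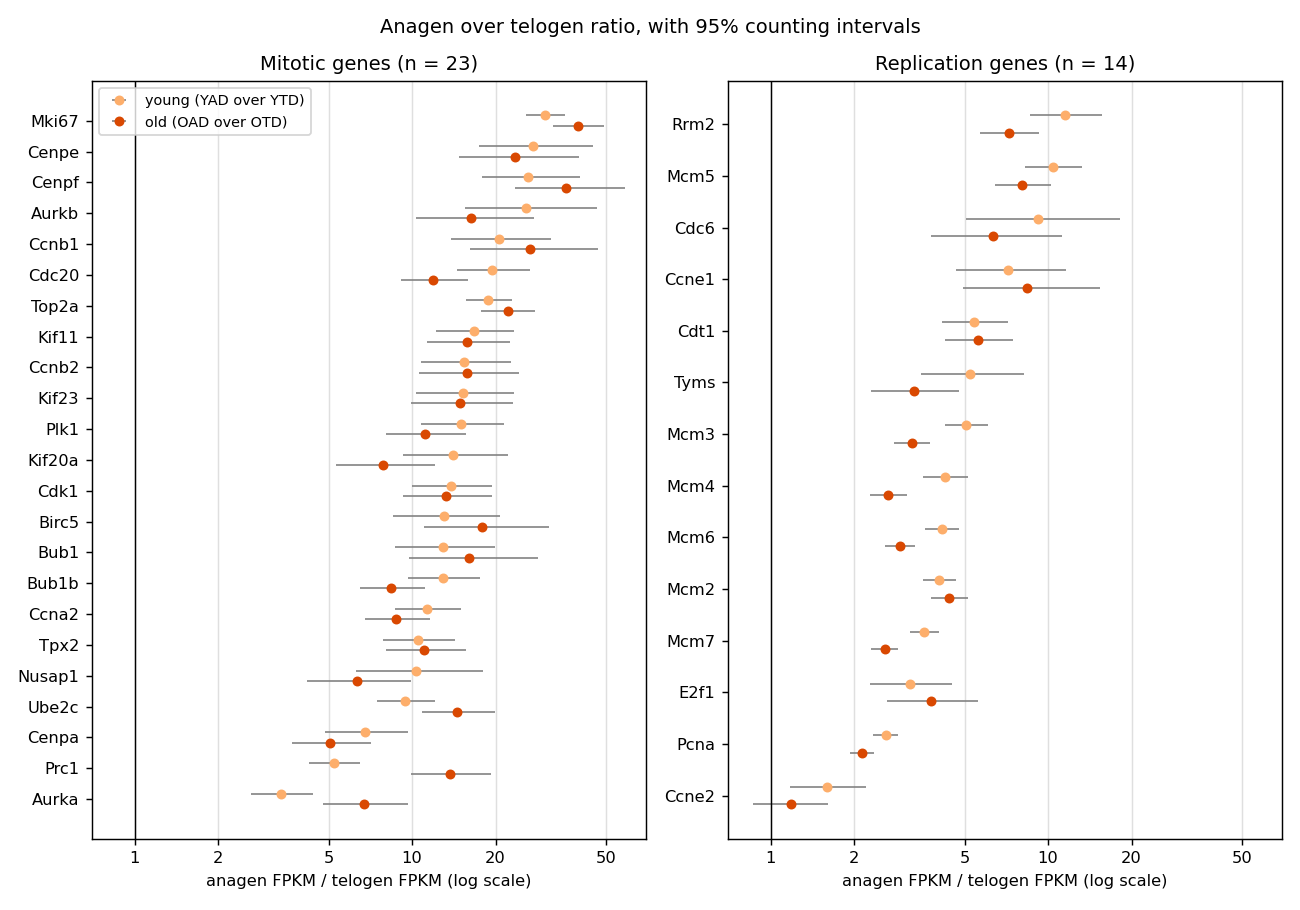
Ratio of anagen to telogen FPKM of each gene on a log axis, for young (YAD over YTD, pale) and old (OAD over OTD, dark) dWAT, with 95% counting intervals as bars. Mitotic genes (left) lie mostly above 10 and replication genes (right) mostly below, and the interval of Ccne2 in the old is the only one that holds 1.

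The promoters of these genes carry different letters, which the choice of the genes did not use. RefSeq promoters of 300 bases (250 before to 50 after the start, build GRCm38.p6) were at hand for 31 of the 37 genes, 19 mitotic and 12 replication. They were searched on both strands for CCAAT, the box bound by NF-Y, for TTTGAA or TTCGAA, the cell cycle genes homology region (CHR) bound by MuvB complexes, and for TTTCCCGC, TTTGGCGC, TTTCGCGC or TTTGCCGC, forms of the E2F site. None of the 3 kinds of motif contains another, though E2F forms on opposite strands can overlap each other. A CHR was present in 15 of the 19 mitotic promoters and in 2 of the 12 replication promoters, beside 17.1% of all 16377 promoters. CCAAT was present in 17 of 19 mitotic and 7 of 12 replication promoters, beside 38.7% of all. An E2F form was present in 1 of 19 mitotic promoters, that of Cdk1, and in 6 of 12 replication promoters, beside 2.96% of all. Both CCAAT and a CHR occurred in the same window in 15 of the 19 mitotic promoters, 2 of the 12 replication promoters and 7.10% of all. None of the 3 kinds was found in 2 of 19 mitotic promoters, those of Birc5 and Nusap1. The same held for 3 of 12 replication promoters, those of Tyms, Ccne1 and E2f1, and for 49.9% of all.

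**Figure D3:**
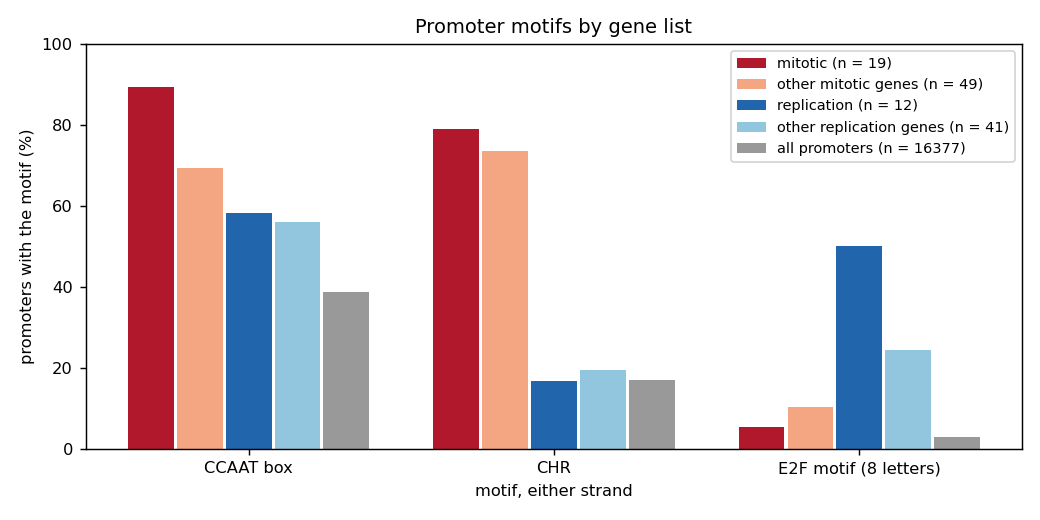
Share of 300-base promoters that hold each motif on either strand, in percent, for the mitotic and replication genes, for further genes of the same functions, and for all promoters. The bars of the mitotic lists stand highest for CCAAT and CHR, and the replication genes are highest for the E2F forms, in 6 of 12 promoters.

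The letters of 9 of the 31 genes are shown as the 150 bases before the RefSeq start. CCAAT, CHR and E2F matches of either strand are in capitals. Mki67, Top2a, Cdk1, Cdc20 and Ube2c are mitotic genes with both CCAAT and a CHR, and Ccnb1 is a mitotic gene whose window held CCAAT but no CHR. These stretches are chr7:135716380-135716529, chr11:99024190-99024339, chr10:69352913-69353062, chr4:118437344-118437493 and chr13:100786487-100786636, all on the minus strand, and chr2:164769779-164769928 on the plus strand.
Mki67: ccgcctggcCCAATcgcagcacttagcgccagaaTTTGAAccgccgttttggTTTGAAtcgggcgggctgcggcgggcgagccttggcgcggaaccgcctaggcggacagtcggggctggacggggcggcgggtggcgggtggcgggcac
Top2a: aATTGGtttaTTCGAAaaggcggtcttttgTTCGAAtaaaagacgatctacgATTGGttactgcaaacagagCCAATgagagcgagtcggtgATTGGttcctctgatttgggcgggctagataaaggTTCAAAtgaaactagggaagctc
Cdk1: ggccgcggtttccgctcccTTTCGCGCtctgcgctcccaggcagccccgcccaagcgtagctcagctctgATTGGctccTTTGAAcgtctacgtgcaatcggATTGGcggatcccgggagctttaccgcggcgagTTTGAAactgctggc
Cdc20: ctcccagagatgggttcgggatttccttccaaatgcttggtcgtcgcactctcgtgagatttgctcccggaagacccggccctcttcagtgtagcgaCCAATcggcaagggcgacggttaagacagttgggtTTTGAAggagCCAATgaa
Ube2c: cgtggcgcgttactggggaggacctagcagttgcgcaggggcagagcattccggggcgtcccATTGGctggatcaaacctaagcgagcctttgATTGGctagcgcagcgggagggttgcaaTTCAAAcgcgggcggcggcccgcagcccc
Ccnb1: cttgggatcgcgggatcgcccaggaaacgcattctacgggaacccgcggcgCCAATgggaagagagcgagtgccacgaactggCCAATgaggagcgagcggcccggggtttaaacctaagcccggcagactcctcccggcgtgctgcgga
Mcm5 and Mcm6 are replication genes with E2F forms, and Rrm2, the replication gene with the largest fold in the young, had CCAAT but neither a CHR nor an E2F form of 8 letters in its window. Their stretches are chr8:75109359-75109508 and chr12:24708104-24708253 on the plus strand and chr1:128359706-128359855 on the minus strand.
Mcm5: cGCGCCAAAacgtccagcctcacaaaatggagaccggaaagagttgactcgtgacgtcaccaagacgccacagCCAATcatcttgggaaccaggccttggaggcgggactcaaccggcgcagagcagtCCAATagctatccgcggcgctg
Mcm6: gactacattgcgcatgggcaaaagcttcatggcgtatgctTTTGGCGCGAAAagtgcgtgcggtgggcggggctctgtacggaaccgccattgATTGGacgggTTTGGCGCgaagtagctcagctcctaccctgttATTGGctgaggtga
Rrm2: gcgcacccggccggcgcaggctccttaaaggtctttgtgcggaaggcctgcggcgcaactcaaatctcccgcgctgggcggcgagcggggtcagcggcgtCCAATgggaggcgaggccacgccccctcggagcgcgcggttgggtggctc
In the Mcm6 window 3 E2F forms were found, of which a pair overlaps in the longest run of capitals, and in the Top2a window 6 CCAAT and 4 CHR matches. Positions were taken for the match furthest downstream in each mitotic promoter that held one. The median was position 3 for the CHR, with the start base counted as the first. For CCAAT it was 45 bases before the start. The RefSeq start lay within 50 bases of the deposited gene start for 26 of the 31 genes. It lay 539 bases away for Mcm7, 466 for E2f1, 350 for Cdc6, 134 for Pcna and 84 for Ccnb1. A match is a description of the letters, and a window with no match says only that these letters are not in it.

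Within each group the change was set beside the motif. Mitotic genes with a CHR had a median log2 difference between YAD and YTD of 2.87 (15 genes), and those without one of 2.79 (4 genes). Replication genes with an E2F form had a median of 1.92 and those without one of 1.82, with 6 genes each. In the old the same medians were 2.67 and 2.64 for mitotic genes with and without a CHR, and 1.46 and 1.63 for replication genes with and without an E2F form.

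Among genes of the chromosomes and centromeres, Mki67, which codes for the proliferation marker Ki-67 that coats mitotic chromosomes (chr7:135689788-135716379, minus strand), had the largest log2 difference of the 37 genes at both ages. It was 0.843 FPKM in YTD, 0.474 in OTD, 25.5 in YAD and 18.8 in OAD. The fold was 30.3 (interval 25.8 to 35.7) in the young and 39.7 (32.3 to 49.4) in the old, and its log2 differences of 3.85 and 3.75 ranked 277 among 13738 genes in the young and 351 among 13847 in the old that reached 1 FPKM. Top2a, topoisomerase II alpha, which untangles the copied chromosomes, was 1.33 FPKM in YTD, 0.892 in OTD, 25.0 in YAD and 19.7 in OAD, or 18.8-fold (15.7 to 22.9) and 22.1-fold (17.8 to 27.8) higher. Both genes were lower in the old than in the young library of each phase. Cenpe and Cenpf, a kinesin and a large coiled-coil protein of the kinetochore, had the lowest telogen levels of the mitotic genes. Cenpf was 0.151 FPKM in YTD, 0.115 in OTD, 3.97 in YAD and 4.14 in OAD, the only one of the 37 genes with its highest value in OAD. Cenpa, the histone H3 variant of centromeres, was already 5.05 FPKM in YTD and 5.38 in OTD, and with 34.2 in YAD and 27.3 in OAD its folds were only 6.77 (4.87 to 9.66) and 5.07 (3.68 to 7.13).

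Cyclins and their kinase moved together. Cdk1, the kinase that starts mitosis, was 2.28 FPKM in YTD, 1.79 in OTD, 31.5 in YAD and 23.7 in OAD. Its partner Ccnb1, cyclin B1, was 1.02 FPKM in YTD, 0.602 in OTD, 20.9 in YAD and 16.0 in OAD, which is 20.5-fold (13.9 to 31.7) and 26.6-fold (16.2 to 46.9) higher in anagen. Ccnb2 was 15.4-fold and Ccna2, cyclin A2, 11.3-fold higher in the young, and 15.7-fold and 8.78-fold in the old. The highest of the 4 genes of this group exceeded the lowest 2.33 times in YTD and 3.89 times in OTD, but only 1.51 times in YAD and 1.48 times in OAD.

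Among the kinases and checkpoint genes, Aurkb, the kinase of the chromosomal passenger complex, was 0.726 FPKM in YTD, 0.894 in OTD, 18.7 in YAD and 14.6 in OAD, 25.8-fold (15.5 to 46.5) and 16.4-fold (10.3 to 27.5) higher in anagen. Aurka, the kinase of the spindle poles, stood apart in telogen. It was 3.24 FPKM in YTD and 1.48 in OTD, against 10.9 in YAD and 9.94 in OAD, so its fold was 3.38 (2.63 to 4.38) in the young and 6.72 (4.79 to 9.67) in the old. The other genes of this group, Plk1, Bub1, Bub1b and Birc5, were 12.9-fold to 15.0-fold higher in the young and 8.42-fold to 17.9-fold in the old. Birc5, survivin, a further subunit of the passenger complex, reached 36.1 FPKM in YAD and 34.3 in OAD from 2.77 in YTD and 1.91 in OTD.

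Both genes of the anaphase-promoting complex pathway were among the more abundant in anagen. Ube2c, the E2 enzyme of the complex, had the highest anagen level of the mitotic genes, with 7.22 FPKM in YTD, 4.30 in OTD, 68.3 in YAD and 62.5 in OAD. Cdc20, which activates the complex, was 1.61 FPKM in YTD, 1.90 in OTD, 31.3 in YAD and 22.7 in OAD, with folds of 19.5 (14.5 to 26.6) and 11.9 (9.15 to 15.9).

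The genes of the spindle ranged from 5.21-fold to 16.7-fold higher in the young and from 6.32-fold to 15.8-fold in the old. Kif11, the kinesin that pushes spindle poles apart, was 0.679 FPKM in YTD, 0.573 in OTD, 11.3 in YAD and 9.04 in OAD, the largest fold of this group in the young. Prc1, which bundles microtubules of the central spindle, was 2.92 FPKM in YTD, 1.07 in OTD, 15.2 in YAD and 14.6 in OAD. Its telogen values thus lay further apart than its anagen values, and the fold was 5.21 (4.24 to 6.47) in the young and 13.7 (9.94 to 19.3) in the old. Kif20a, a kinesin of cytokinesis, was 0.459 FPKM in YTD, 0.518 in OTD, 6.43 in YAD and 4.07 in OAD. Kif23, Tpx2 and Nusap1 were between 10.3-fold and 15.2-fold higher in the young.

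The 6 subunits of the MCM helicase, which act in a ring of equal shares, became more even in anagen. In YTD they ranged from 1.84 to 8.16 FPKM, or 4.43 times from lowest to highest, and in OTD 5.22 times. In YAD the range was 12.0 to 29.2 FPKM, or 2.43 times, and in OAD 2.34 times. Mcm5 moved most, from 1.84 FPKM in YTD and 1.85 in OTD to 19.2 in YAD and 14.9 in OAD, which is 10.4-fold (8.27 to 13.3) and 8.06-fold (6.42 to 10.2). Mcm7, the most abundant subunit in each library, was 8.16 FPKM in YTD, 9.65 in OTD, 29.2 in YAD and 24.8 in OAD, and had the smallest folds of the 6, 3.58 (3.18 to 4.03) and 2.57 (2.31 to 2.88). Mcm2, Mcm3, Mcm4 and Mcm6 were between 4.05-fold and 5.06-fold higher in the young, and between 2.65-fold and 4.40-fold in the old.

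Of the genes for loading, the clamp and nucleotides, Pcna was by far the most abundant, with 31.2 FPKM in YTD, 33.7 in OTD, 81.0 in YAD and 71.5 in OAD. Its folds of 2.60 (2.34 to 2.89) and 2.13 (1.92 to 2.35) were the smallest of the called genes. Rrm2, the regulated subunit of ribonucleotide reductase, was 2.22 FPKM in YTD, 3.10 in OTD, 25.5 in YAD and 22.4 in OAD, which is 11.5-fold (8.63 to 15.7) and 7.21-fold (5.66 to 9.30). Cdc6, the loading factor, was the gene with the fewest fragments, an estimated 12 in YTD, and its 0.346 FPKM in YTD, 0.463 in OTD, 3.17 in YAD and 2.92 in OAD gave a fold of 9.17 with a wide interval of 5.08 to 18.2 in the young. Cdt1, its partner, was 5.42-fold higher in the young and 5.59-fold in the old, and Tyms, thymidylate synthase, 5.23-fold and 3.28-fold.

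The genes of S phase entry included the only one that was not called. Ccne2, cyclin E2 (chr4:11191354-11204779, plus strand), was 2.65 FPKM in YTD, 2.92 in OTD, 4.24 in YAD and 3.44 in OAD, with a fold of 1.60 (1.17 to 2.21) in the young and of 1.18 (0.87 to 1.61) in the old, where the interval holds 1. Ccne1, cyclin E1, was 0.951 FPKM in YTD, 0.588 in OTD, 6.82 in YAD and 4.93 in OAD. Its folds of 7.18 (4.65 to 11.6) and 8.39 (4.93 to 15.4) lay well above those of Ccne2. E2f1, the transcription factor of S phase genes, was 1.83 FPKM in YTD, 1.36 in OTD, 5.81 in YAD and 5.16 in OAD.

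Between the ages the 37 genes differed much less than between the phases, and in telogen in different directions. None was called higher in OTD than YTD, beside 1.67% of all genes, and none lower, beside 1.93%. At any size, 17 of the 23 mitotic genes were lower in OTD and 10 of the 14 replication genes were higher, while 54.1% of all genes were lower. The median differences were -0.09 for the mitotic and 0.11 for the replication genes, beside -0.03 over all genes. With the mitochondrially encoded genes left out and the rest rescaled, Ccna2, Plk1, Kif23 and Cdt1 turned from lower to higher, and Ccna2 and Plk1 also turned when scaled by the median of ratios.

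Counting intervals that left out 1 were found for 10 genes in telogen. Intervals were computed for the listed genes only, so no share over all genes stands beside this count. They rest on the values as deposited, and a rescaling of a library would move all folds and intervals by the same factor. Which genes leave out 1 therefore depends on the scaling, and intervals were not computed under other scalings. Those lower in OTD were Prc1 at 0.365-fold (0.247 to 0.531), Aurka at 0.457-fold (0.302 to 0.681), Mki67 at 0.562-fold (0.430 to 0.732), Ube2c at 0.596-fold (0.405 to 0.868), Top2a at 0.672-fold (0.502 to 0.897) and Mcm2 at 0.779-fold (0.643 to 0.941). Those higher in OTD were all MCM subunits, Mcm4 at 1.41-fold (1.14 to 1.76), Mcm3 at 1.34-fold (1.08 to 1.66), Mcm6 at 1.28-fold (1.08 to 1.51) and Mcm7 at 1.18-fold (1.02 to 1.37). Mcm2 and the other subunits of the same ring thus stood on opposite sides of 1, and Mcm5 lay between them with 1.84 FPKM in YTD and 1.85 in OTD. For the other 27 genes the interval held 1, and a difference was not detectable at this depth.

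In anagen 36 of the 37 genes were lower in OAD than YAD as deposited, beside 50% of all genes, and the 1 exception, Cenpf at 1.04-fold (0.95 to 1.15), also fell below 1 when the values were rescaled to TPM or with the mitochondrial genes left out. No gene was called higher, beside 0.727% of all genes, and none lower, beside 0.454%. The median differences were -0.33 for the mitotic and -0.19 for the replication genes, beside 0 over all genes. As ratios, the medians were 0.784 and 0.869. Kif20a was lowest at 0.634-fold (0.541 to 0.741), followed by Cenpe at 0.721-fold (0.642 to 0.810), Ccne1 at 0.723-fold (0.581 to 0.899) and Cdc20 at 0.726-fold (0.663 to 0.795). Mki67 was 0.737-fold (0.709 to 0.767) in OAD against YAD. The interval lay below 1 for 26 genes, among them all 6 MCM subunits and all 4 cyclin and CDK1 genes, and held 1 for 11. No intervals were computed for other genes, so whether 26 of 37 is an unusual count is not known. The count also depends on the scaling, as in telogen. Each gene was measured in the same 2 libraries, so the genes are no replicates of the age difference. The paper reports that old mice entered anagen later after depilation than young mice, and it does not state the days of collection. Age cannot be told apart here from the time after plucking or the stage of anagen.

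**Figure D4:**
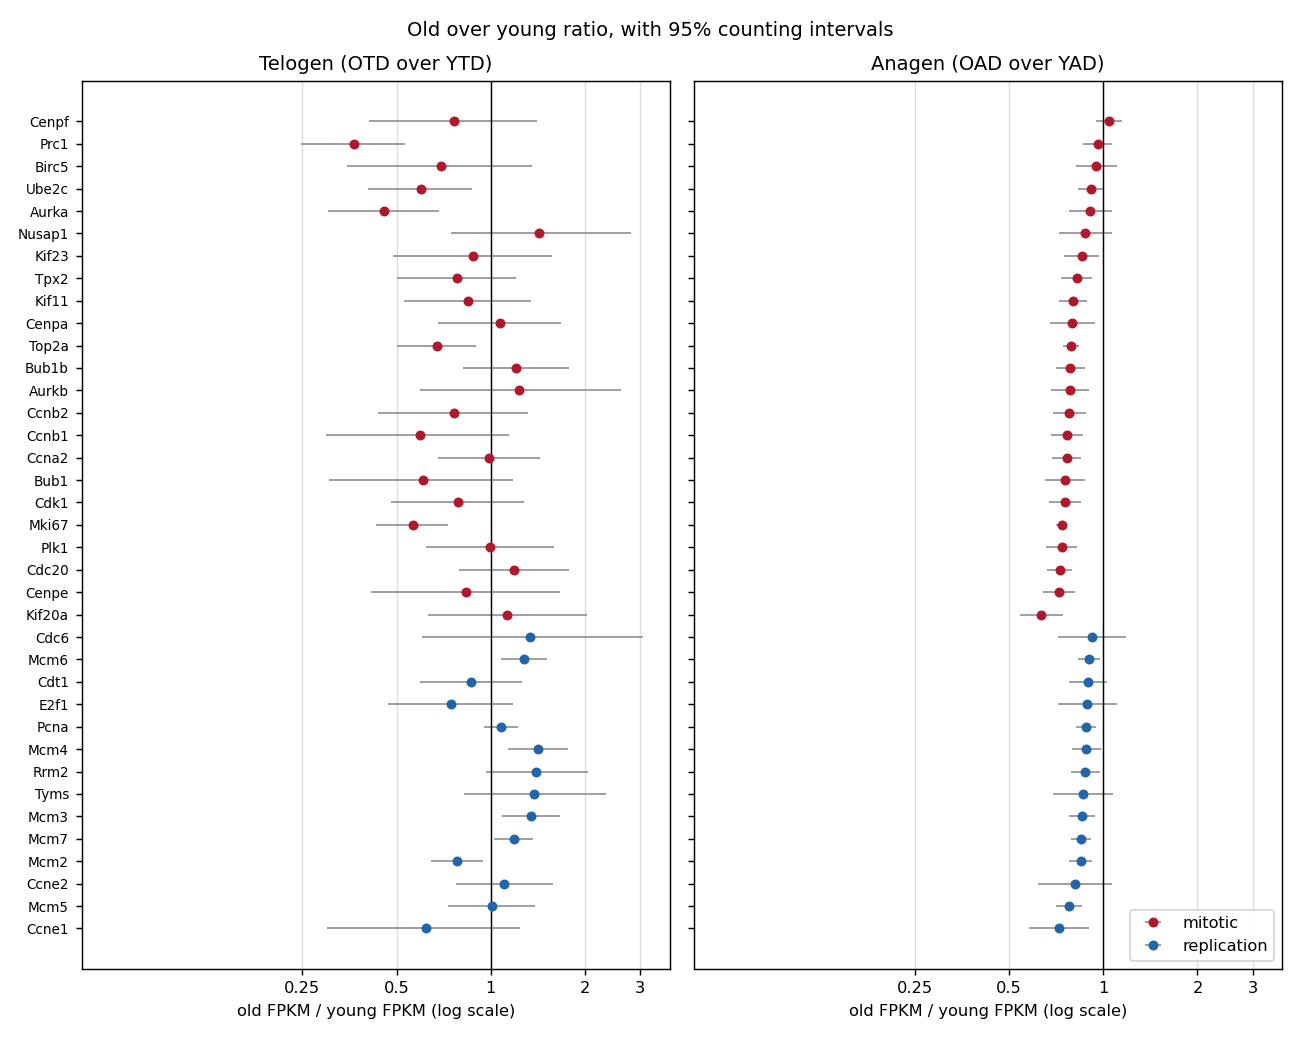
Ratio of old to young FPKM of each gene on a log axis in telogen (OTD over YTD, left) and anagen (OAD over YAD, right), mitotic genes in red and replication genes in blue, with 95% counting intervals as bars. In telogen the points spread from 0.365 to 1.43 with wide intervals, and in anagen 36 of 37 lie below 1 in the values as deposited.

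The order of the 4 libraries was YAD, OAD, YTD, OTD from high to low for 16 mitotic and 4 replication genes. It was YAD, OAD, OTD, YTD for 6 mitotic and 10 replication genes. Cenpf, with OAD highest, YAD next and OTD lowest, made up the rest.

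Further genes of the same pathways were counted in the same way. Of 62 other mitotic genes, 59 were called higher and 1 lower in the young, and 58 and 1 in the old, with median log2 differences of 2.15 and 1.98. Psrc1, a spindle protein, had the largest log2 difference among them, 3.80 in the young and 3.74 in the old, from 1.04 FPKM in YTD and 0.814 in OTD to 27.3 in YAD and 23.2 in OAD. Pttg1, securin, which holds separase inactive until anaphase, went the other way. It was 93.8 FPKM in YTD, 88.0 in OTD, 21.1 in YAD and 26.9 in OAD, the only mitotic gene called lower and one that was more abundant in telogen than any of the 37 genes. Of 51 other replication genes, 34 in the young and 28 in the old were called higher and none lower, with medians of 1.40 and 1.16, and 4 in the young and 2 in the old were lower at a smaller size. Uhrf1, which guides DNA methylation behind the fork, had the largest log2 difference at 3.65 and 3.73, from 1.28 FPKM in YTD and 0.755 in OTD to 27.6 in YAD and 22.3 in OAD. Pold2, a polymerase delta subunit, was 25.3 FPKM in YTD, 22.1 in OTD, 23.8 in YAD and 24.4 in OAD, with no called difference. A CHR was present in 36 of 49 promoters of other mitotic genes and in 8 of 41 of other replication genes, while an E2F form was present in 5 of 49 and 10 of 41.

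Of 20 transcription regulators of the cell cycle, 7 were called higher and 1 lower at each age. Foxm1, the factor that acts with MuvB at mitotic genes, was 1.11 FPKM in YTD, 0.314 in OTD, 11.8 in YAD and 8.54 in OAD. Mybl2, which codes for B-MYB, another partner of MuvB, was 0.515 FPKM in YTD, 0.263 in OTD, 8.01 in YAD and 6.19 in OAD. E2f6, a repressor of the E2F family, was the one called lower, with 53.4 FPKM in YTD, 31.4 in OTD, 8.60 in YAD and 11.4 in OAD. E2f2, an activator of the family, went from 3.15 FPKM in YTD and 1.26 in OTD to 19.7 in YAD and 17.0 in OAD.

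Upstream of S phase, 4 of the 6 G1 cyclins and kinases were called higher in the young and 3 in the old. Cdk4 was 29.7 FPKM in YTD, 32.0 in OTD, 111 in YAD and 87.2 in OAD, and its partner Ccnd2, cyclin D2, was 13.9, 13.3, 51.0 and 38.3 FPKM in the same order. Ccnd1, cyclin D1, was 13.9 FPKM in YTD, 13.1 in OTD, 42.3 in YAD and 24.2 in OAD, with log2 differences of 1.54 in the young and 0.83 in the old, so it was called in the young only, and whether the ages differed was not tested. Ccnd3, cyclin D3, went the other way by less than the threshold, from 42.6 FPKM in YTD and 37.3 in OTD to 25.2 in YAD and 20.9 in OAD. Cdk2 was called at both ages, with 2.26 and 1.45, and Cdk6 at neither, with 0.59 and 0.73.

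The 7 inhibitors of these kinases moved in both directions, 2 called higher and 2 lower in the young, and 2 and 1 in the old. Cdkn1a, which codes for p21, was 76.6 FPKM in YTD, 56.0 in OTD, 179 in YAD and 192 in OAD, called higher in anagen at both ages together with Cdkn2b, the p15 gene, which was 4.88-fold higher in the young and 7.68-fold in the old. Cdkn1c, the p57 gene, was called lower at both ages, with 24.3 FPKM in YTD, 29.1 in OTD, 11.0 in YAD and 7.87 in OAD. Cdkn2c, the p18 gene, had log2 differences of -1.23 in the young and -0.69 in the old, and Cdkn2d, the p19 gene of this family, of -0.80 and -0.13. Cdkn1b, the p27 gene, was between 23.4 and 31.2 FPKM in all 4 libraries. Cdkn2a, which codes for p16 and ARF and is a marker of senescent cells, was 0.807 FPKM in YTD, 2.06 in OTD, 0.139 in YAD, a value under the floor of 3 fragments, and 1.28 in OAD. It was the only gene of the list called between the ages, with a difference between OAD and YAD that barely reached the threshold.

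The content of the libraries changed with phase along with the 37 genes. All 13 matched markers of the hair matrix and shaft were called higher in anagen at both ages, and their summed level was 98.2 FPKM in YTD, 31.9 in OTD, 10422 in YAD and 9900 in OAD. The 9 inner root sheath markers were called higher too, with sums of 399.0 FPKM in YTD, 245 in OTD, 12298 in YAD and 18544 in OAD, and 1 of them, Krt74, was listed at 0 in OTD. Of 9 markers of basal keratinocytes and the outer root sheath, 8 were called higher at each age, and of 7 melanocyte markers, 6. The adipocyte markers, all 9 above 0 in each library, summed to 6168 FPKM in YTD, 7551 in OTD, 1840 in YAD and 2643 in OAD, and 8 of 9 in the young and 7 of 9 in the old were called lower in anagen. All 8 macrophage and all 6 endothelial markers were called lower in anagen, as were 7 in the young and 8 in the old of the 9 fibroblast and fat progenitor markers above 0, while Dpp4 of that list was called higher, with 1.51 in the young and 1.18 in the old, and Dlk1 was listed at 0 in each library. Skeletal muscle markers held 5.33% of all FPKM in YTD, 3.38% in OTD, 1.09% in YAD and 1.25% in OAD, and mitochondrially encoded genes 44.7%, 52.7%, 14.4% and 18.3% in the same order. The part of follicle cells, of muscle and of mitochondrial transcripts in the differences of the 37 genes was not tested. Of 12 housekeeping genes, 2 were called higher and 3 lower in the young, and none and 4 in the old, with medians of 0.35 and 0.18.

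Marker lists differed between the ages too. In telogen all 13 hair matrix and shaft markers were lower in OTD, 8 of them called, with a median of -1.13. The 7 markers of skeletal muscle also had lower values in old telogen dWAT, 2 of them called, and a median of -0.70. Macrophage markers, 8 of 8, had higher values there and a median of 0.70, as had all 6 endothelial markers, with 0.71. So had 8 of the 9 fibroblast and fat progenitor markers above 0, with 0.54. Of these, 1 macrophage, 1 endothelial and 2 fibroblast markers were called. Adipocyte markers were higher in 7 of 9 cases, none called, with a median of 0.32. Between the anagen libraries, hair matrix and shaft markers were lower in OAD in 11 of 13 cases, none called, and their median difference was -0.18. For the inner root sheath, 8 of 9 markers were higher in OAD, 1 of them called, and the median difference was 0.37. The 7 melanocyte markers were all lower in OAD, 1 of them called, with a median of -0.73. Higher in OAD, with none called, were 9 of 9 adipocyte, 6 of 6 endothelial and 6 of 7 skeletal muscle markers. Of the basal keratinocyte and outer root sheath markers 6 of 9 were higher, 1 called. Lower in OAD were 8 of 8 macrophage markers, none called, and 6 of 9 fibroblast and fat progenitor markers, 2 called. What these markers contribute to the differences of the 37 genes between the ages was not tested.

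**Figure D5:**
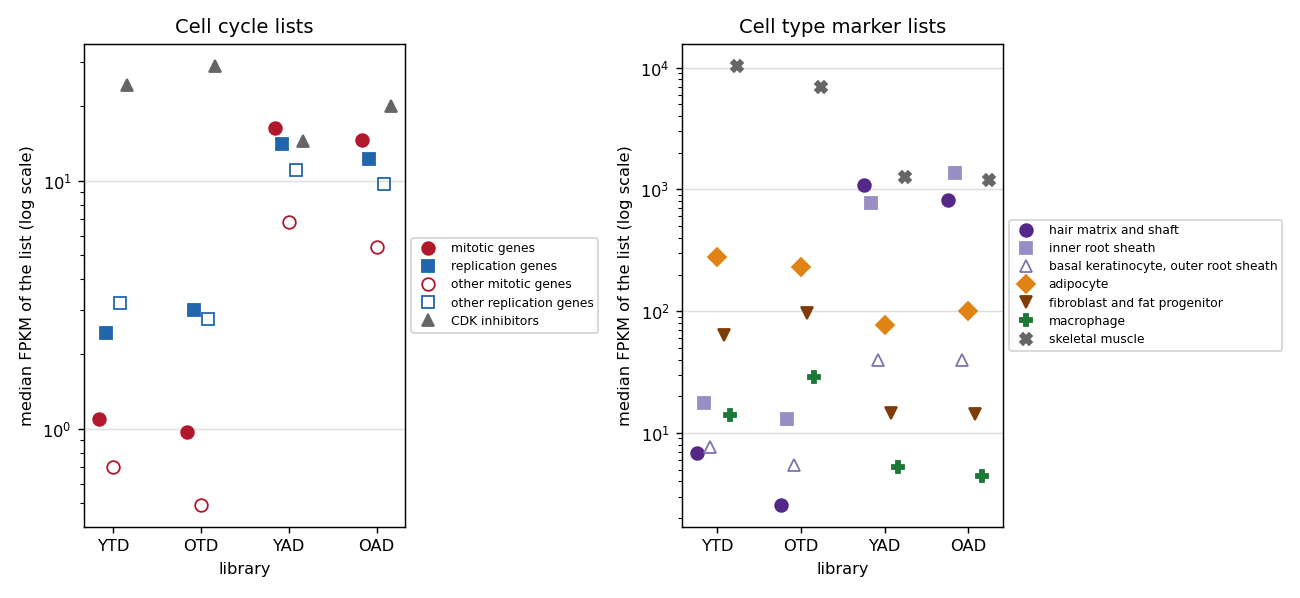
Median FPKM of each gene list in each of the 4 libraries, on a log axis, for cell cycle lists (left, filled symbols for the 37 genes and the inhibitors of cyclin-dependent kinases, open for further genes of the same pathways) and cell type markers (right). The medians of the mitotic genes go from 1.09 and 0.965 FPKM in telogen to 16.4 and 14.6 in anagen, beside the hair matrix, sheath and keratinocyte markers, while adipocyte, fibroblast, macrophage and muscle medians are lower in anagen.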

How the data were processed

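RNA of microdissected dWAT was sequenced in 4 libraries, 1 for each of YTD, OTD, YAD and OAD. FPKM of 22913 genes in each library, with gene positions and lengths, are the values the authors deposited. The processing notes of the submitters name bcl2fastq, TopHat2 and GRCm38 without versions, and the tool that computed FPKM and its annotation are not given in the sources used here, nor how fragments shared by near-identical gene copies were assigned. The listed lengths, of which 97.0% are multiples of 3, look like coding lengths. FPKM were used as deposited.

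Groups follow the sample titles. Of the identifiers, 21750 were matched to a symbol. A gene was called when log2(FPKM + 1) differed by at least 1, over genes above 0 in either library. The depth was estimated from the low FPKM of features of 2000 to 4000 bases, near the value of 1 fragment, and 3 fragments were set as the floor, which all 37 genes passed in each library. Ratios carry exact binomial (Clopper-Pearson) 95% intervals on the rounded fragments. With 1 library per group no test was run. The genes named from other lists were the 3 with the highest mean FPKM and those with the largest changes past the threshold, and all G1 cyclins, kinases and inhibitors. The 37 genes and all lists were chosen with earlier results of these data known. Sgol1, Sgol2a and Casc5 were matched under newer symbols, and Krt85 was not matched. Promoters are from RefSeq, the window nearest to the deposited start being used. The steps were tested on simulated data. Alternatives were other pseudocounts, a filter at an FPKM of 1, a threshold of 1.5-fold, TPM and other scalings, other summaries of the ratio and a shorter promoter window. Python 3.11.15, numpy 2.4.6, pandas 2.3.3, scipy 1.17.1 and matplotlib 3.10.9 were used.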

Additional observations from a re-analysis of the deposited data

Results flagged for a closer look

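The old minus young difference had opposite signs in telogen and anagen for the median of the replication genes, higher in OTD than YTD and lower in OAD than YAD, and the telogen difference exceeded the anagen difference by 0.30 on the log2(FPKM + 1) scale. With 1 library per group this was not tested. The same contrast of signs was found for 17 single genes, 10 replication and 7 mitotic. In 16 of them the gene was higher in OTD and lower in OAD. As 36 of the 37 genes were lower in OAD, these are simply the 16 genes that were higher in OTD. The share of all genes with opposite signs was not computed. Among the replication genes the gap was 0.55 for Mcm3 and Mcm4, 0.53 for Rrm2, 0.49 for Tyms, 0.45 for Mcm6, 0.44 for Mcm7, 0.35 for Mcm5, 0.34 for Ccne2, 0.28 for Pcna and 0.21 for Cdc6. Among the mitotic genes it was 0.61 for Kif20a, 0.60 for Cdc20, 0.47 for Aurkb, 0.44 for Bub1b, 0.40 for Nusap1 and 0.39 for Cenpa. Cenpf went the other way, lower in OTD and slightly higher in OAD, with a gap of -0.10. The sign of the Cenpf difference in anagen turned when the values were rescaled to TPM or with the mitochondrial genes left out. Which genes differ in sign thus depends on the scaling. Without mitochondrial genes, 20 of the 37 genes were higher in OTD and 37 were lower in OAD. Some telogen differences were also close to none, as that of Mcm5 at 0.004. None of these differences was tested. Of the 16 genes, Mcm3, Mcm4, Mcm6 and Mcm7 had counting intervals that left out 1 in both phases, in the values as deposited.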

How the results depend on the processing

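All 37 genes stayed higher in anagen at both ages under each pseudocount, filter and scaling tried, and of the recomputed medians, counts and ratios 119 stayed within 1.5 times of the reported value and 21 moved further, with no change of sign. With TPM the median difference of all genes was 0.45 in the young and 0.32 in the old between phases and -0.16 between OAD and YAD, against 0.02, 0.01 and 0 as deposited. Relative to these medians, the mitotic median was 3.03 and 2.76 higher in anagen and the replication median 2.09 and 1.59. The telogen age difference moved most. The mitotic median was -0.22 with a pseudocount of 0.1, -0.35 with 0.01, -0.22 with only genes of an FPKM of at least 1, -0.029 with mitochondrially encoded genes left out and -0.039 with follicle, muscle and Krtap genes left out as well. The replication median was 0.19 with a pseudocount of 0.1 and 0.19 with 0.01, and 0.31 and 0.28 in the same 2 rescalings. Those rescalings also moved the telogen median of all genes, from -0.03 as deposited to 0.10 and 0.08. Relative to all genes, the mitotic median was -0.06 as deposited and -0.13 and -0.12 in the 2 rescalings. The replication median relative to all genes was 0.14 as deposited and 0.21 and 0.20. Members called lower in OTD numbered 2 with each of the lower pseudocounts and 3 at a threshold of 1.5-fold, against 0. The share of all genes called at these settings was not computed, so whether these counts are unusual is not known. In anagen the mitotic median was -0.55 with TPM and -0.49 without mitochondrial genes, and the replication median -0.41 with TPM, -0.35 without mitochondrial genes and -0.30 without the markers too. Relative to all genes, the mitotic median in anagen was -0.33 as deposited, -0.39 with TPM and -0.38 without mitochondrial genes. The replication median relative to all genes was -0.19, -0.25 and -0.23 in the same order, and -0.22 without the markers too. With only genes of an FPKM of at least 1 in the library, the ratio of mitotic to replication medians was 0.835 in YTD and 0.531 in OTD, since the filter takes out low mitotic genes. An E2F form of 7 letters, an alternative chosen after seeing the data, was present in 3 of 19 mitotic and 7 of 12 replication promoters, beside 12.7% of all. With 150 bases before the start a CHR was present in 1 of 12 replication promoters, beside 9.90% of all. Changes of the pseudocount, threshold, filter, scaling, motif and window alter the values by construction. No further cause of these changes was tested. No paired analysis was possible because each group holds 1 library, and no library could be left out for the same reason. The depth is an estimate, and low telogen levels rest on as few as 12 fragments.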
